A study of Mus musculus with 12 samples.

Results

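The transcripts of 9 mouse Toll-like receptors were followed in bone marrow-derived macrophages left alone or fed melanoma corpses. The receptors were chosen by gene symbol, with no measured value used, and fall into 4 that work at the cell surface (Tlr1, Tlr2, Tlr4 and Tlr6) and 5 that work in endosomes (Tlr3, Tlr7, Tlr8, Tlr9 and Tlr13). They are 9 of the 55604 genes counted, and all 9 passed the filter on low counts that left 16406 genes for testing. No member passed through 1 group only, since the lowest count of any receptor in any library was 246, for Tlr3.

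All 3 groups were macrophages of the C57BL/6 strain, differentiated from marrow in 20 ng/ml M-CSF, the macrophage growth factor, and taken on day 7. The first group of 4 libraries was macrophages alone. B16-F10, the line that gave the corpses, is a mouse melanoma. The second group of 4 had received control B16-F10 corpses, and the third group of 4 STC1OE B16-F10 corpses, from cells that overexpress the secreted glycoprotein stanniocalcin-1. There were 5 corpses per macrophage, and corpses that had not bound were removed by washing after 20 h. The labels state neither how the cells were killed nor whether the STC1OE line is 1 clone, and no promoter is named. The design text speaks of independent experiments for each condition, without saying how animals were divided among them. The macrophages carry no engineered allele in the labels, and they name no purified Toll-like receptor ligand.

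Toll-like receptors are membrane proteins that bind conserved molecules of microbes, and some also bind nucleic acids of the body's own cells. Their outer part is a coil of leucine-rich repeats that holds the ligand, and their inner TIR domain recruits the adaptors MyD88 or TRIF, which lead to NF-kB, MAP kinases and interferon regulatory factors. Receptors at the plasma membrane meet lipids and proteins, whereas those in endosomes meet nucleic acids, and the chaperone UNC93B1 carries the latter there. Macrophages that engulf a dying cell bring its DNA and RNA into the compartment where the endosomal receptors sit.

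The libraries held 28488441 to 39981074 counts assigned to genes. All 10 macrophage markers checked were present, with a summed level of 16859 to 17768 CPM (counts relative to the library total, adjusted by TMM factors) in macrophages alone, 14558 to 16243 CPM with control corpses and 14503 to 15622 CPM with STC1OE corpses. The 12 melanocyte markers summed to 169.7 CPM in macrophages alone and to 126.4 and 118.5 CPM in the control and STC1OE corpse groups, a fall set by Mitf, at 164.7, 109.5 and 109.1 CPM. Without Mitf and Erbb3, the 10 that lay below 1 CPM in macrophages alone, a choice made after seeing their values, summed to 0.438 CPM in that group and to 11.7 and 4.07 CPM in the control and STC1OE corpse groups. Melanocyte transcripts were thus counted in the corpse groups, and their part in the values of the receptors was not tested. Stc1 itself had 5, 5 and 17 counts in all 4 libraries of macrophages alone, control corpses and STC1OE corpses. In macrophages alone and with STC1OE corpses, libraries 1 and 2 resembled each other and so did libraries 3 and 4, and no label gives a reason. Unaligned reads made up 13.4%, 14.0%, 11.9% and 11.4% in replicates 1 to 4 of macrophages alone. The shares were 14.6%, 14.4%, 17.8% and 17.5% with STC1OE corpses, all above the 11.3%, 11.5%, 10.8% and 11.4% with control corpses. What part this difference has in the values below was not tested. Where a call below did not hold in libraries 1 and 2 only or in libraries 3 and 4 only, this is said beside it.

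Tlr1 and Tlr6 are neighbours on the minus strand of mouse chromosome 5 (GRCm38), at chr5:64924679-64933563 and chr5:64952031-64960097, and they are close copies of each other. Either pairs with TLR2, TLR1 for triacylated and TLR6 for diacylated lipopeptides of bacteria. Of all 150-base windows in their transcripts, 4.30% of those of Tlr1 and 3.86% of those of Tlr6 were found in the other gene, and no other pair of receptors shared such a window. The longest identical stretch, 229 bases within a coding exon of each gene, is shown because reads that fall inside it fit both genes. It lies at chr5:64925537-64925765 in Tlr1 and at chr5:64953828-64954056 in Tlr6, both on the minus strand, and how the authors' counting treated such reads was not tested.
Tlr1 and Tlr6 shared stretch: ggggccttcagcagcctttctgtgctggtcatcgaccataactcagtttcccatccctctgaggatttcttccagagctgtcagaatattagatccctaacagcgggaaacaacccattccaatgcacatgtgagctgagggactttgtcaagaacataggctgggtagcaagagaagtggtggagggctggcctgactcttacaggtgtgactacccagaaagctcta

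The promoters of 3 receptors are shown for the results that follow, from RefSeq on GRCm38.p6. Tlr9 had the largest change of the 9 receptors, and Tlr1 and Tlr6 are the neighbours of which Tlr1 changed and Tlr6 did not pass the test. Capitals mark motif matches, and each sequence holds only bases outside the exons that GENCODE M21 annotates for the gene. The first is chr9:106222348-106222597 on the plus strand, where capitals mark an AP-1 match, the second chr5:64933564-64933808 on the minus strand, with a PU.1 match, and the third chr5:64959167-64959416 on the minus strand, with an interferon response element. The Tlr6 sequence precedes a RefSeq start that lies inside the gene as GENCODE M21 places it, downstream of the start that gives the gene its outer end.
Tlr9 promoter: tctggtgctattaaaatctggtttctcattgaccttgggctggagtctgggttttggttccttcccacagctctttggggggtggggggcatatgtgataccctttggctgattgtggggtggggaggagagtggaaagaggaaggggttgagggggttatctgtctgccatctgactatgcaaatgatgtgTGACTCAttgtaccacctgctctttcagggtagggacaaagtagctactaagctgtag
Tlr1 promoter: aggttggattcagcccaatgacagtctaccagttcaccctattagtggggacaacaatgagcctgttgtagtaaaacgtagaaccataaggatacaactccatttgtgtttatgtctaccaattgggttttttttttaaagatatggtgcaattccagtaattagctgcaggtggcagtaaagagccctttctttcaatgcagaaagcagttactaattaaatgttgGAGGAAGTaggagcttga
Tlr6 promoter: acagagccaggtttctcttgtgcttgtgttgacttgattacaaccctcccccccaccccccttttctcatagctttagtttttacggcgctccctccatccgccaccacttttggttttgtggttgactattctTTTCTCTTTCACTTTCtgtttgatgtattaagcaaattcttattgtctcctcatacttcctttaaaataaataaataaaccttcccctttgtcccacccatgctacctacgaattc
Windows of 250 bases before to 50 bases after the start were in the table for 7 of the 9 receptors, 9 windows in all, with more than 1 start for some genes, and were searched on both strands for 5 motifs. The PU.1 core GAGGAAGT, the site of the factor that directs myeloid genes, matched Tlr1 23 bases before the start and, on the opposite strand, Tlr9 11 bases after it. It was found in 3.2% of all 32851 windows. AP-1, TGANTCA, matched Tlr9 alone, 58 bases before the start, against 7.81% of all windows. The interferon response element matched Tlr6 alone, in 2 overlapping copies on the opposite strand 116 and 110 bases before the start, against 3.44%. The NF-kB motif matched Tlr2, Tlr3 and the outer start of Tlr6, against 5.56%, and the lysosomal E-box TCACGTGA matched no window of a receptor, against 0.974%. These matches describe letters in the windows and were not tied to the counts.

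The levels of the receptors were compared with each other per kilobase of exon, since a longer transcript yields more counts. In macrophages alone, Tlr13, the receptor of bacterial ribosomal RNA, stood highest at 128 ± 3.82 CPM per kilobase (SD, n = 4). Tlr8, at 45.6 ± 1.26, and Tlr7, a receptor of single-stranded RNA or its breakdown products, at 27.7 ± 1.03 CPM per kilobase, came next. The lipopolysaccharide receptor Tlr4 followed at 17.1 ± 0.658 and Tlr1 at 16.1 ± 0.607 CPM per kilobase, and these were the only neighbours in the order whose libraries overlapped. Below them came Tlr2 at 8.92 ± 0.502, the receptor of unmethylated CpG DNA Tlr9 at 7.36 ± 0.175, Tlr6 at 5.76 ± 0.243 and the double-stranded RNA receptor Tlr3 at 1.80 ± 0.211 CPM per kilobase. From Tlr13 to Tlr3 the order thus ran across both classes, with the highest 3 and the lowest being endosomal.

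With corpses the order changed in 1 place. Tlr9 stood at 4.27 ± 0.325 CPM per kilobase with control corpses and 3.96 ± 0.272 with STC1OE corpses, below Tlr6 at 5.65 ± 0.134 and 5.91 ± 0.185. All other positions were as in macrophages alone, and within each corpse group no neighbours in the order overlapped. Other receptors of the family were near the limit of counting: Tlr5, the flagellin receptor, had 0.415, 0.327 and 0.273 CPM in macrophages alone, control corpses and STC1OE corpses, and Tlr11 and Tlr12 had at most 0.0787 and 0.06 CPM in any group's mean and were not tested.

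**Figure D1:**
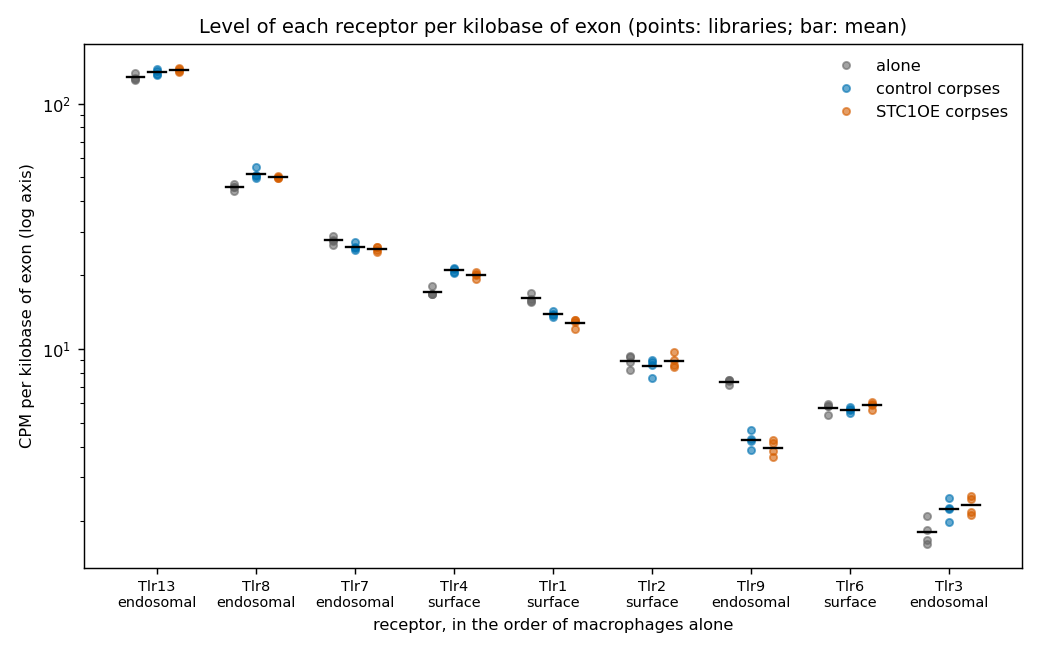
Level of each of the 9 receptors in CPM per kilobase of exon on a log axis, with 1 point per library (n = 4 per group) and a bar at the group mean, ordered as in macrophages alone. Tlr13 was highest in all 3 groups (128, 134 and 137 CPM per kilobase), and Tlr9 lay above Tlr6 in macrophages alone and below it in both corpse groups.

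Summed over their class, the 5 endosomal receptors reached 210 CPM per kilobase in macrophages alone, 218 with control corpses and 219 with STC1OE corpses. The 4 surface receptors reached 47.8, 49.0 and 47.7 CPM per kilobase. The ratio of the endosomal to the surface sum was 4.40 ± 0.15, 4.46 ± 0.14 and 4.60 ± 0.09 (SD, n = 4), and ranged over the libraries from 4.22 to 4.59, from 4.28 to 4.60 and from 4.50 to 4.71. The ranges overlapped between every pair of groups. Tlr13 led the endosomal class, with 60.8%, 61.4% and 62.7% of its sum. In the surface class Tlr4 had the highest mean, with 35.7%, 42.7% and 42.0% of the sum, but its libraries overlapped those of Tlr1 in macrophages alone. The ratio rests on the length used, and per kilobase of coding sequence it was 3.66, 3.62 and 3.75.

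Engulfment of corpses was compared with macrophages alone, first for control corpses. Of the 9 receptors, 4 rose (Tlr3, Tlr4, Tlr8 and Tlr13) and 3 fell (Tlr1, Tlr7 and Tlr9), and Tlr2 and Tlr6 did not pass the test, at an adjusted p below 0.05 in edgeR's quasi-likelihood test. Over all 16406 genes tested, 40.1% were called in this comparison, 19.7% higher and 20.5% lower. By class, 1 of 4 surface receptors rose and 1 fell, and 3 of 5 endosomal receptors rose and 2 fell; the difference between the classes was not tested. The median log2 fold change of the 9 was −0.03, and the range ran from −0.79 for Tlr9 to 0.31 for Tlr3, so no receptor passed a 2-fold change. In bulk RNA such as this, fewer cells that express a gene and less of its RNA per cell cannot be told apart.

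With STC1OE corpses the same 4 receptors rose and the same 3 fell against macrophages alone, where 43.8% of all genes were called, 21.4% higher and 22.4% lower. The median of the 9 was 0.04. Both comparisons use the same 4 libraries of macrophages alone, so they are not independent of each other. The libraries of the 2 groups did not overlap for 4 receptors with control corpses (Tlr1, Tlr4, Tlr8 and Tlr9) and for all 7 called receptors with STC1OE corpses. Of all genes tested, 37.2% did not overlap with control corpses (18.3% higher, 18.9% lower) and 40% with STC1OE corpses (19.7% higher, 20.2% lower). No receptor was called higher with either corpse when the test was made against a fold of 1.2, and only Tlr9 was called lower. With the mean of the melanocyte markers as a covariate no receptor was called in either comparison (Tlr9 at −0.13 and −0.51, adjusted p = 0.964 and 0.243 in edgeR); this covariate differs between the groups, and of all genes only 15 higher and 14 lower were then called with control corpses.

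**Figure D2:**
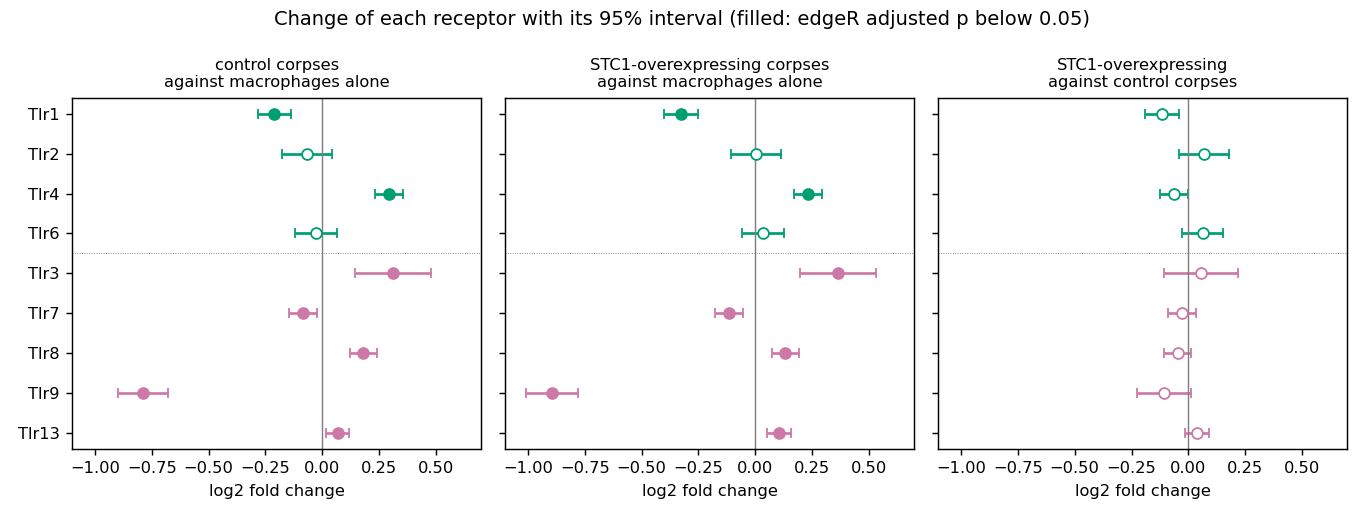
Log2 fold change of each receptor in the 3 comparisons, with its 95% interval from edgeR. Filled points passed an adjusted p of 0.05; green marks surface and pink endosomal receptors. Tlr9 lies farthest from 0 in both comparisons with macrophages alone (−0.79 and −0.89), and no point is filled in the comparison of the corpse groups.

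Among the endosomal receptors, Tlr9 fell most. Its level was 26.0, 24.7, 26.0 and 25.7 CPM in the 4 libraries of macrophages alone, 13.5, 14.6, 16.2 and 15 CPM with control corpses and 13.3, 12.7, 14.3 and 14.7 CPM with STC1OE corpses. Every library with corpses lay below every library without, and the corpse groups overlapped each other. With control corpses it fell by 42.1% (log2 fold change −0.79 ± 0.05 SE, adjusted p = 2.66e-13 in edgeR), and with STC1OE corpses it fell by 46.2% (−0.89 ± 0.06, adjusted p = 1.74e-14). Its 95% intervals were −0.90 to −0.68 and −1.01 to −0.78. The fall was −0.85 in libraries 1 and 2 only and −0.73 in libraries 3 and 4 only with control corpses, and −0.96 and −0.83 with STC1OE corpses. Of all genes tested, 95.7% had a smaller absolute log2 fold change than Tlr9 with control corpses and 96.1% with STC1OE corpses.

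Tlr9 is also a receptor of B cells and plasmacytoid dendritic cells, so markers of these and of other cells were listed beside it. The 7 B cell markers summed to 14.6 to 15.8 CPM in macrophages alone, 4.65 to 5.47 CPM with control corpses and 4.44 to 4.74 CPM with STC1OE corpses. Most of this was Ighm, the heavy chain of IgM, at 12.5, 2.55 and 2.50 CPM, while the B cell transcription factor gene Pax5 had 0.0157, 0 and 0.00739 CPM. The 6 plasmacytoid dendritic cell markers summed to 88.9 to 96.4, 71.9 to 75.4 and 66.7 to 70.6 CPM. Nearly all of it was Tcf4, at 89.6, 72.4 and 67.5 CPM, and the defining gene Siglech had 0.0157, 0.0423 and 0.00811 CPM. The sum of 10 neutrophil markers went from 187 to 196 CPM in macrophages alone to 97.7 to 103 and 90.2 to 97.0 CPM with corpses. It was mostly Mmp8, a collagenase, and Ly6g was at 0 in all 12 libraries. The sum of 6 conventional dendritic cell markers went from 318 to 335 CPM down to 220 to 233 and 230 to 243 CPM, mostly Itgax, and the defining gene Flt3 had 0.0587, 0.00622 and 0 CPM. These 4 lists moved in the same direction as Tlr9, and so did the mean sums of all other lists checked. The melanocyte sum fell through Mitf, while 7 of the 9 tested melanocyte markers were called higher with either corpse. T and NK cell markers summed to 0.448, 0.332 and 0.262 CPM, and mast cell and basophil markers to 0.937, 0.789 and 0.813 CPM. Macrophage markers went from a mean of 17334 CPM to 15219 and 14986 CPM. Fibroblast and stromal cell markers went from 20.1 to 15.1 and 14.6 CPM. The falls differed in size between the lists, and the part of any of these cells in the fall of Tlr9 was not tested.

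The genes most like Tlr9 were found among 7850 genes above 10 CPM by the root mean square difference of centred log2 CPM over the 12 libraries, where Tlr9 itself had an SD of 0.406. The nearest were Mmp8, at a difference of 0.0702, H2-DMa, which edits the peptides loaded on MHC class II, at 0.0706, and the Fc receptor-like gene Fcrls at 0.0740. Mmp8 had 167, 90.3 and 83.8 CPM, H2-DMa 21.2, 12.2 and 11.5 CPM, and Fcrls 62.8, 37.5 and 34.0 CPM in macrophages alone, control corpses and STC1OE corpses. No other receptor had a range over the groups wide enough for this search.

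Tlr7 and Tlr8, neighbours on chromosome X, went in opposite directions by small amounts. Tlr7 had 118.3, 108.2, 111.9 and 113.7 CPM in macrophages alone, 103.0, 111.6, 106.1 and 105.4 CPM with control corpses and 106.7, 101.4, 103.5 and 105.9 CPM with STC1OE corpses. Its libraries overlapped between macrophages alone and control corpses but not between macrophages alone and STC1OE corpses. It fell by 5.76% with control corpses (log2 fold change −0.09 ± 0.03 SE, adjusted p = 0.0238 in edgeR) and fell by 7.63% with STC1OE corpses (−0.11, adjusted p = 0.00267). The latter call was lost in libraries 1 and 2 only (−0.12, adjusted p = 0.0956). The call with control corpses did not hold with DESeq2 (adjusted p = 0.0677), without the filter on low counts (0.0519), in libraries 1 and 2 only (0.313), or without any 1 of 7 libraries. These were replicates 1, 3 and 4 of control corpses, 1 and 4 of macrophages alone, and 2 and 3 of STC1OE corpses, and the log2 fold change came nearest to 0, at −0.05, without replicate 1 of macrophages alone.

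Tlr8 had 168.9, 157.8, 163.8 and 164.0 CPM in macrophages alone, 177.4, 198.3, 183.3 and 182.4 CPM with control corpses and 180.1, 178.3, 181.1 and 177.7 CPM with STC1OE corpses. All 8 libraries with corpses lay above the 4 without. The rise was 13.2% with control corpses (log2 fold change 0.18 ± 0.03 SE, adjusted p = 7.59e-06 in edgeR) and 9.58% with STC1OE corpses (0.13 ± 0.03, adjusted p = 0.000429). The latter did not pass in libraries 1 and 2 only (0.14, adjusted p = 0.0545). Per kilobase, the ratio of Tlr7 to Tlr8 was 0.607 in macrophages alone, 0.505 with control corpses and 0.511 with STC1OE corpses, and the libraries of macrophages alone, from 0.600 to 0.615, lay above those of both corpse groups.

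Tlr13, the most abundant receptor, had 573.8, 537.7, 540.5 and 547.8 CPM in macrophages alone, 566.9, 593.2, 562.6 and 582.3 CPM with control corpses and 601.7, 581.0, 586.1 and 597.1 CPM with STC1OE corpses. Replicate 1 of macrophages alone lay among the control corpse libraries, and the STC1OE libraries lay above all 4 of macrophages alone. The log2 fold change was 0.07 ± 0.03 SE with control corpses (adjusted p = 0.0331 in edgeR) and 0.11 ± 0.03 with STC1OE corpses (adjusted p = 0.00101). The call with control corpses was lost without the filter on low counts (0.0549), in libraries 1 and 2 only (0.363), and without replicates 2 or 4 of control corpses or 2, 3 or 4 of macrophages alone. The call with STC1OE corpses was lost in libraries 1 and 2 only (0.139).

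Tlr3, which signals through TRIF and not MyD88, was the least abundant receptor. It had 10.8, 8.37, 8.71 and 9.50 CPM in macrophages alone, 10.3, 11.7, 12.8 and 11.6 CPM with control corpses and 13.1, 11.0, 12.7 and 11.3 CPM with STC1OE corpses. One library of macrophages alone, replicate 1, lay above the lowest control corpse library. The log2 fold change was 0.31 ± 0.08 SE with control corpses (adjusted p = 0.00263 in edgeR) and 0.37 ± 0.08 with STC1OE corpses (adjusted p = 0.000512). In libraries 1 and 2 only neither rise passed, at 0.19 (adjusted p = 0.313) and 0.33 (0.0601), whereas in libraries 3 and 4 only they were 0.42 and 0.40. An antisense gene, Gm45542, overlaps 7.32% of the exon bases of Tlr3, and without a stated strand setting reads of both genes cannot be told apart there.

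**Figure D3:**
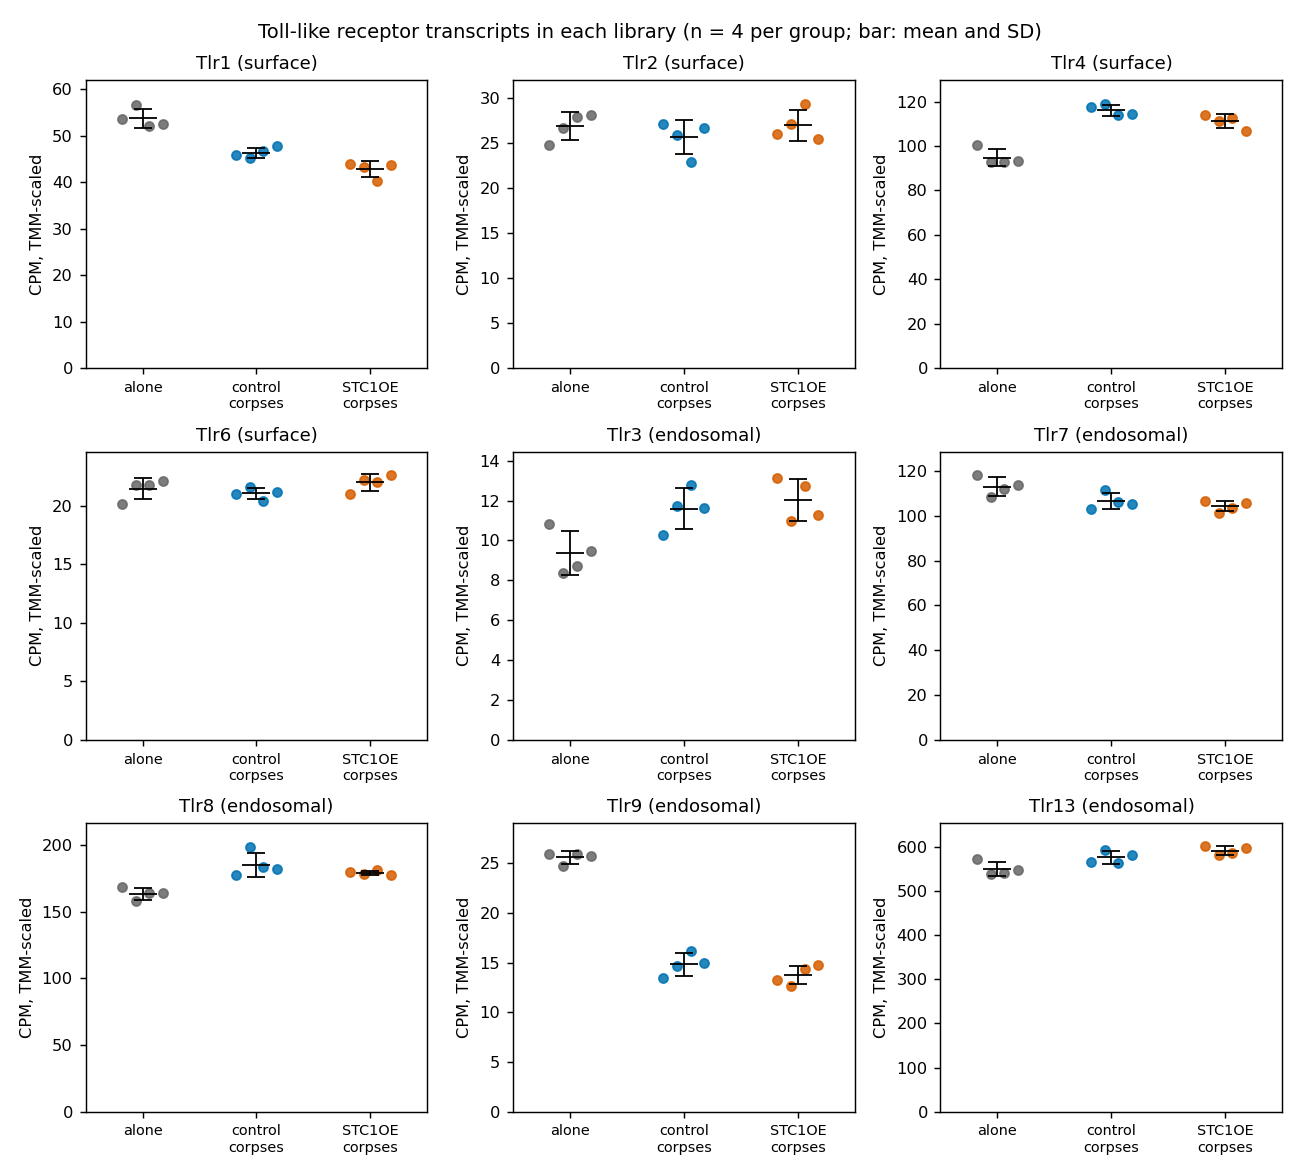
Level of each receptor in CPM in each of the 12 libraries, replicates 1 to 4 from left to right within a group, with the group mean and SD (n = 4) in black and each axis starting at 0. The 8 corpse libraries of Tlr9 lie between 12.7 and 16.2 CPM, below the 24.7 to 26.0 CPM of macrophages alone, and those of Tlr4 and Tlr8 lie above.

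Among the surface receptors, Tlr4 rose. It had 100.3, 93.0, 92.6 and 93.4 CPM in macrophages alone, 117.8, 118.9, 113.8 and 114.4 CPM with control corpses and 114.1, 111.1, 112.8 and 107.0 CPM with STC1OE corpses. All libraries with corpses lay above all without. The rise was 22.6% with control corpses (log2 fold change 0.29 ± 0.03 SE, adjusted p = 1.4e-09 in edgeR) and 17.4% with STC1OE corpses (0.23 ± 0.03, adjusted p = 1.53e-07). It was 0.29 in libraries 1 and 2 only and 0.29 in libraries 3 and 4 only with control corpses.

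Tlr1 fell. Its libraries held 53.7, 56.6, 52.2 and 52.5 CPM in macrophages alone, 46.0, 45.2, 46.6 and 47.8 CPM with control corpses and 43.9, 43.2, 40.3 and 43.8 CPM with STC1OE corpses. The 3 groups did not overlap, with macrophages alone highest and STC1OE corpses lowest. It fell by 13.6% with control corpses (log2 fold change −0.21 ± 0.04 SE, adjusted p = 1.38e-05 in edgeR) and fell by 20.3% with STC1OE corpses (−0.33 ± 0.04, adjusted p = 8.29e-09). With control corpses it was −0.28 in libraries 1 and 2 only and −0.15 in libraries 3 and 4 only.

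Tlr2 and Tlr6, which form a receptor together, did not pass the test with either corpse. Tlr2 had 24.8, 26.7, 27.9 and 28.1 CPM in macrophages alone, 27.1, 25.9, 22.9 and 26.7 CPM with control corpses and 26.0, 27.1, 29.3 and 25.4 CPM with STC1OE corpses. The 95% interval of its log2 fold change was −0.18 to 0.04 with control corpses and −0.11 to 0.11 with STC1OE corpses. In libraries 3 and 4 only, Tlr2 was lower with control corpses (−0.18, adjusted p = 0.0481), and in libraries 1 and 2 only it was not (0.04, adjusted p = 0.71). Tlr6 had 20.1, 21.8, 21.8 and 22.2 CPM, then 21.0, 21.6, 20.4 and 21.2 CPM, and 21.0, 22.2, 22.1 and 22.7 CPM in the same order of groups. Its intervals were −0.12 to 0.06 and −0.06 to 0.13, and all 3 groups overlapped for both genes. Per kilobase, the ratio of Tlr1 to its neighbour Tlr6 was 2.79 ± 0.16 in macrophages alone, 2.45 ± 0.10 with control corpses and 2.17 ± 0.12 with STC1OE corpses, with no overlap between the 3 groups. The ratio of Tlr2 to Tlr4 was 0.524, 0.407 and 0.447.

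The STC1OE corpses were then set against control corpses, 2 groups that had both engulfed melanoma cells and differed in melanocyte markers as given above. No receptor passed the test in edgeR, and none did in DESeq2, against 5.44% of all genes called in edgeR. At an unadjusted p below 0.05 there were 2, Tlr1 and Tlr4. Tlr1 was the only receptor whose libraries did not overlap between the corpse groups, 45.2 to 47.8 CPM against 40.3 to 43.9 CPM, with a log2 fold change of −0.12 (unadjusted p = 0.00369, adjusted p = 0.0596 in edgeR). Tlr1 passed under 5 of 23 alternatives. Of the other scalings, it passed with upper quartile factors (adjusted p = 0.0416 in edgeR) and TMM factors from macrophage-expressed genes (0.0290), but not with RLE factors. It also passed in libraries 3 and 4 only (0.00943), with the replicate number as a block (0.0482) and without replicate 1 of STC1OE corpses (0.0423). In libraries 1 and 2 only the difference was −0.06 (adjusted p = 0.831). Of all genes tested, 10.7% did not overlap between the corpse groups, 5.86% higher and 4.85% lower. Tlr4 differed by −0.06 (unadjusted p = 0.0399, adjusted p = 0.23).

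For the other 7 receptors the 95% intervals of the log2 difference between STC1OE and control corpses all included 0. They were −0.22 to 0.01 for Tlr9, −0.04 to 0.18 for Tlr2, −0.03 to 0.15 for Tlr6 and −0.11 to 0.22 for Tlr3. For Tlr7, Tlr8 and Tlr13 they were −0.09 to 0.03, −0.11 to 0.01 and −0.01 to 0.09. The widest of these, that of Tlr3, belongs to the receptor with the fewest counts.

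The genes that work with the receptors were taken from lists by role, and their counts are read against the shares of all genes given above. Of the 7 surface co-receptors, 3 rose and 3 fell with either corpse. Cd14, which hands lipopolysaccharide to the TLR4 complex, had 168, 175, 179 and 170 CPM in macrophages alone, 78.2, 60.9, 74.0 and 74.0 CPM with control corpses and 70.8, 61.7, 65.1 and 63.9 CPM with STC1OE corpses. Its log2 fold change was −1.27 ± 0.07 SE with control corpses (adjusted p = 7.74e-08 in edgeR) and −1.40 ± 0.07 with STC1OE corpses (adjusted p = 3.12e-08). Cd14 thus fell while Tlr4 rose, and the groups with and without corpses did not overlap for either gene. Ly96, which encodes MD-2, the subunit of the TLR4 complex that binds lipopolysaccharide, had 6.75, 5.95 and 6.29 CPM and did not pass.

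Cd180 and Ly86, which encode the TLR4-like protein RP105 and its partner MD-1, differed in direction. Cd180 rose from 396 CPM in macrophages alone to 436 with control corpses and 450 CPM with STC1OE corpses (log2 fold changes 0.14 and 0.18), and neither call held in libraries 1 and 2 only (adjusted p = 0.279 and 0.186 in edgeR). Ly86 fell from 60.4 to 39.0 and 35.0 CPM (−0.63 and −0.78), and was lower with STC1OE than with control corpses (−0.15, adjusted p = 0.0173 in edgeR). That last call was lost under 7 of 23 alternatives, among them both subsets of libraries (adjusted p = 0.335 and 0.0758) and leaving out replicates 1 or 3 of control corpses or 3 of STC1OE corpses (0.0753, 0.0553 and 0.0861). Lbp, which binds lipopolysaccharide in serum, rose from 1.08 to 2.49 and 3.05 CPM, and the scavenger receptor Cd36, which also takes up dying cells, from 2504 to 3492 and 3473 CPM.

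**Figure D4:**
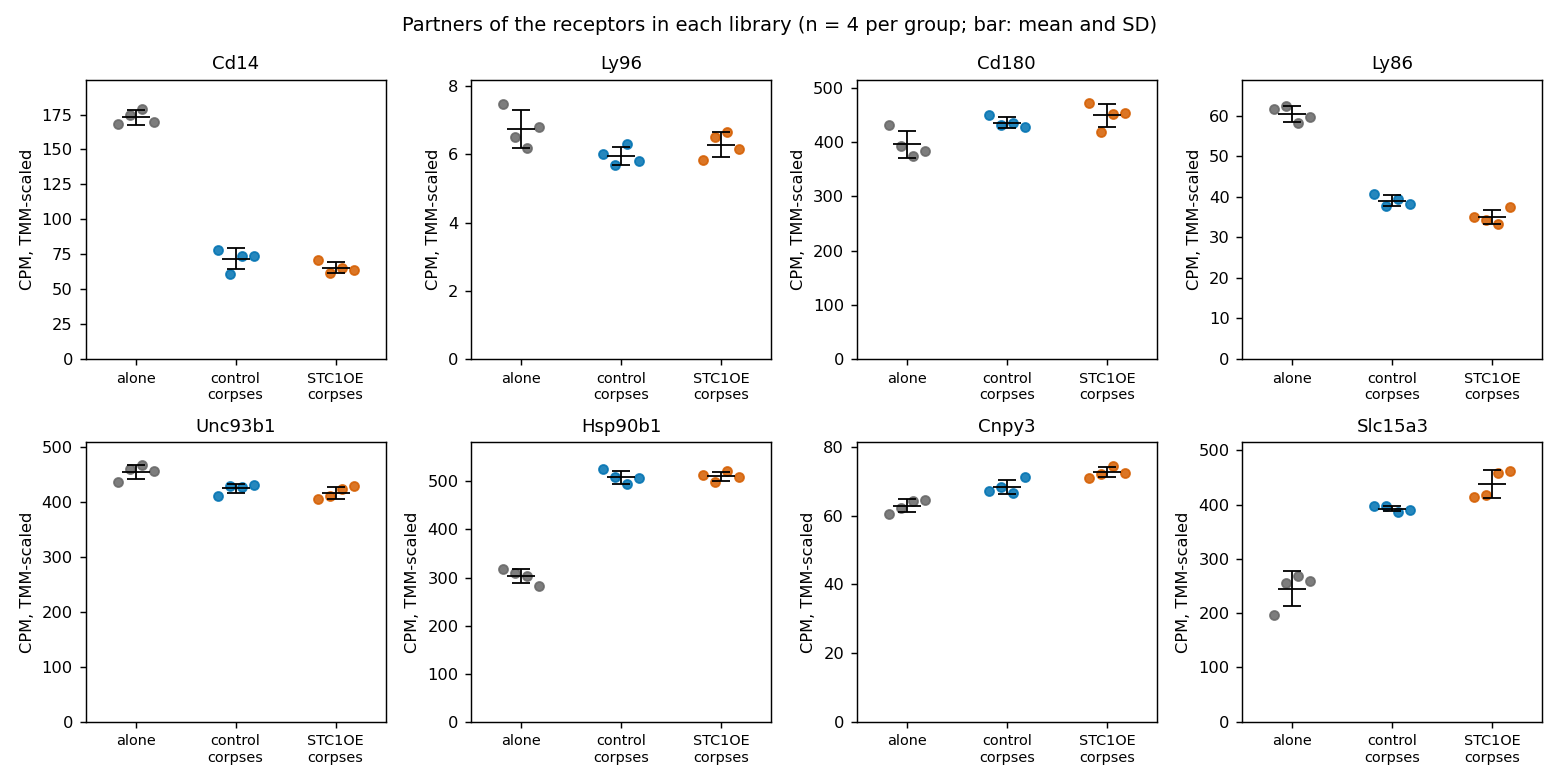
Level in CPM of 8 partners of the receptors in each of the 12 libraries, with the group mean and SD (n = 4) in black and each axis starting at 0. Cd14 and Ly86 are lower with corpses, Hsp90b1 and Slc15a3 are higher, and Unc93b1 is lower by 0.10 and 0.13 on the log2 scale.

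Of 16 genes that fold, carry or cut the receptors, 8 rose and 4 fell with control corpses, and 8 rose and 5 fell with STC1OE corpses, with median log2 fold changes of 0.06 and 0.08. Unc93b1, the carrier of the endosomal receptors, had 437, 461, 467 and 456 CPM in macrophages alone, 412, 430, 427 and 430 CPM with control corpses and 405, 410, 424 and 429 CPM with STC1OE corpses, and fell by 0.10 and 0.13 on the log2 scale (adjusted p = 0.00222 and 0.000166 in edgeR). The call with control corpses was lost in libraries 1 and 2 only (adjusted p = 0.122). The chaperone Hsp90b1, also called gp96, which folds most Toll-like receptors, rose from 303 to 509 and 511 CPM, and its partner Cnpy3 from 62.9 to 68.3 and 72.6 CPM. Slc15a3, an endolysosomal transporter of histidine and peptides, rose from 245 to 393 and 438 CPM. Of the cathepsins that cut endosomal receptors, Ctsl rose from 2371 to 3304 and 3197 CPM and Ctss fell from 3157 to 2536 and 2459 CPM.

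Of 18 adaptors and proximal kinases, 3 rose and 3 fell with control corpses, and 6 rose and 3 fell with STC1OE corpses. Myd88, the adaptor of every receptor here except Tlr3, had 63.8, 60.5 and 63.3 CPM and did not pass in any comparison. The adaptor of TLR3 and TLR4, TRIF, is encoded by Ticam1, which rose from 37.4 to 41.2 and 45.7 CPM, and was also higher with STC1OE than with control corpses (log2 fold change 0.15, adjusted p = 0.0312 in edgeR). That difference was not called under 8 of 23 alternatives, among them libraries 1 and 2 only (adjusted p = 0.621), TMM factors from macrophage-expressed genes (0.0595) and leaving out replicates 2 or 4 of control corpses (0.117 and 0.0562) or 3 or 4 of STC1OE corpses (0.138 and 0.0887). The rise with control corpses was lost in libraries 1 and 2 only (0.523). Ticam2, which bridges TRIF to TLR4, fell (log2 fold changes −0.25 and −0.28), with both calls lost in libraries 1 and 2 only (adjusted p = 0.21 and 0.0766 in edgeR) and the first also without replicate 3 of control corpses (0.0605). Pik3ap1, which links receptors to PI3 kinase, fell from 819 to 688 and 693 CPM, and the kinase Syk rose from 554 to 649 and 693 CPM.

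Of 15 kinases and transcription factors downstream, 6 rose and 7 fell with control corpses, and 6 rose and 6 fell with STC1OE corpses. Ikbke, a kinase of interferon regulatory factors, rose from 62.5 to 100.1 and 99.8 CPM, and Irf7, which acts below TLR7 and TLR9 in interferon induction, from 39.2 to 61.5 and 58.6 CPM. The Irf7 calls were lost in libraries 3 and 4 only (adjusted p = 0.0611 and 0.113 in edgeR). Of 18 negative regulators, 6 rose and 8 fell, and then 7 rose and 6 fell. Socs1, a brake on cytokine signalling, rose (log2 fold changes 0.69 and 0.61), as did Cd300lf, an inhibitory receptor that binds phosphatidylserine (1.40 and 1.48), and the phosphatase Dusp1 fell (−0.57 and −0.56). The Dusp1 calls were lost in libraries 1 and 2 only (adjusted p = 0.142 and 0.162 in edgeR). Irak3, a kinase-dead brake on MyD88 signalling, fell with control corpses from 19.6 to 17.7 CPM (−0.15, adjusted p = 0.0142 in edgeR) and did not pass with STC1OE corpses, at 18.5 CPM. Its call was lost in libraries 3 and 4 only (−0.09, adjusted p = 0.358) and without replicate 2 of control corpses (0.1) or replicate 1 of macrophages alone (0.0645).

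Targets of the receptors were read from lists of genes that respond to their ligands. Of 10 tested early targets of MyD88 and NF-kB, out of 13 listed, 3 rose and 4 fell with control corpses and 4 rose and 4 fell with STC1OE corpses. Tnf rose from 32.9 to 49.0 and 53.4 CPM. The chemokine Ccl4 also rose, from 14.6 to 15.9 CPM over the libraries of macrophages alone to 21.8 to 27.8 CPM with control corpses and 21.3 to 26.9 CPM with STC1OE corpses. The co-activator Nfkbiz and the cytokine Il10 fell (log2 fold changes −0.78 and −0.65 for Nfkbiz, −0.43 and −0.57 for Il10). The Il10 call with control corpses was lost in libraries 3 and 4 only (adjusted p = 0.0743 in edgeR). Of 8 tested targets of TRIF and IRF3, out of 9 listed, 7 rose and 0 fell with control corpses and 6 rose and 0 fell with STC1OE corpses, with median log2 fold changes of 0.77 and 0.61. Over all genes tested the medians were −0.001 and −0.03. Ccl2, the monocyte chemokine, rose from 28.2 to 84.1 and 80.9 CPM, and the interferon-induced Rsad2 and Ifit3 also rose (1.28 and 1.19 for Rsad2, 1.02 and 0.76 for Ifit3). In libraries 3 and 4 only, Ifit3 was not called with either corpse (adjusted p = 0.0548 and 0.155 in edgeR), nor Rsad2 with STC1OE corpses (0.0519). Type I interferon also induces Ifit3 and Rsad2, so these counts do not single out a receptor.

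Between STC1OE and control corpses, few of these genes were called. There were 2 higher of 18 adaptors, 2 higher of 15 downstream genes, 4 higher of 18 negative regulators and 1 lower of 7 co-receptors, and 0 of 16 folding genes, 0 of 10 MyD88 targets and 0 of 8 TRIF targets. Over all genes 3.33% were called higher and 2.12% lower. The share of higher genes among all called was 61.1%, but 44.7% with TMM factors from macrophage-expressed genes and 74.3% with DESeq2, so the split between higher and lower genes moved with the scaling. Among the genes higher with STC1OE corpses were Ikbkg, which encodes the NEMO subunit of the IkB kinase (log2 fold change 0.15, adjusted p = 0.00176 in edgeR), Jun, a subunit of AP-1 (0.16, 0.00784), Tollip, which sorts receptors for degradation (0.10, 0.013) and Syk (0.09, 0.0228). In libraries 1 and 2 only none of these 4 was called (adjusted p = 0.166, 0.42, 0.427 and 0.546). The Syk call was lost under 10 of 23 alternatives, among them leaving out replicates 1 or 3 of control corpses (0.0969 and 0.0774) or 2, 3 or 4 of STC1OE corpses (0.074, 0.07 and 0.0521).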

How the data were processed

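RNA sequencing libraries of 3 groups of 4 were analysed from the deposited raw read counts per gene, 55604 genes in each library. The authors' counts came from HISAT2 and HTSeq, and DESeq2 was also used, per the submitters' processing notes, which name mm10 and GRCm38 and no versions. The annotation release and strand setting are not given in the sources used here. Symbols, positions and exon lengths came from GENCODE M21 by identifier, which named 54723 genes.

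Genes were filtered by filterByExpr (minimum count 10, minimum total 15), scaled by TMM and fitted with edgeR 4.0.16 under R 4.3.3 (robust quasi-likelihood fit of all 12 libraries, 1 mean per group, Benjamini-Hochberg adjustment over 16406 genes, threshold 0.05). CPM are TMM-scaled. Rows that name no gene, 10.6% to 14.7% of reads for no feature and 5.53% to 6.62% for ambiguous reads, with low-quality, unaligned and multiply aligned reads at 5.17% to 5.85%, 10.8% to 17.8% and 5.74% to 7.03%, were left out. The steps were tested on simulated data in which 200 of 16406 genes were changed. Over the 3 comparisons they recovered 33.8% to 35.3% of 1.2-fold changes, 68.1% to 71.0% of 1.5-fold changes and 76.2% to 79.4% of 2-fold changes, with 3 to 8 false calls. The 200 genes were drawn from all 16406 at any level of counts, so these shares do not give the recovery for the receptors. Alternatives were other scalings, no filter, DESeq2 1.42.0, a replicate block, a melanocyte covariate, a test against 1.2-fold, subsets of libraries, and leaving out each library.

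All 9 receptors are named. From the other lists came fixed genes of the receptor complexes and up to 4 called genes per list with the largest changes and at least 2 CPM. Nfkbia and Ifit2 also met this rule, are not described above, and were called higher with either corpse against macrophages alone. Nfkbia was also called higher with STC1OE than with control corpses, and that call was lost under 15 of 23 alternatives. The Ifit2 calls were lost in both subsets of libraries. The receptors, lists and tests were chosen with earlier results of these data known. No library repeated another of its group (chi-square per degree of freedom 2.73 to 17.1). P-values measure the spread between these libraries.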

Additional observations from a re-analysis of the deposited data

Results flagged for a closer look

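Of 132 checks of a group of 4 libraries, for 44 named genes in 3 groups, 6 found 1 library set apart from the other 3 by a gap of more than 0.829 of the group's range (Dixon's 95% limit), which chance gives in about 1 of 20 groups. Tlr4 in replicate 1 of macrophages alone was the highest of its group at 100.3 CPM, and still below every library with corpses. Cd36 in the same library was also highest, at 2619 CPM, and Cd300lf there was lowest, at 4.45 CPM. Ikbkg was lowest in replicate 3 of macrophages alone, at 82.6 CPM. With control corpses, Lbp was lowest in replicate 2, at 2.14 CPM, and Ccl4, a chemokine, was highest in replicate 1, at 27.8 CPM.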

How the results depend on the processing

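With each library left out in turn, 3 to 4 receptors rose and 2 to 3 fell with control corpses, 4 to 4 rose and 3 to 3 fell with STC1OE corpses, and between the corpse groups 0 to 0 were higher and 0 to 1 lower. The endosomal to surface ratio stayed between 4.33 and 4.46 in macrophages alone, 4.41 and 4.52 with control corpses and 4.56 and 4.63 with STC1OE corpses. Per kilobase of coding sequence, chosen after seeing the data because the planned RefSeq coding length could not be run, it was 3.66, 3.62 and 3.75, and without length scaling 4.37, 4.27 and 4.44, so that with either of these lengths control corpses lay below macrophages alone.

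Against macrophages alone, 0 receptors rose with either corpse in a test against 1.2-fold, and 1 fell. In libraries 1 and 2 only, 2 rose with control and 1 with STC1OE corpses, and Tlr7 was not lower with either. With the melanocyte covariate 0 rose and 0 fell in either comparison, but this covariate differs between the groups. Between the corpse groups 1 receptor, Tlr1, was lower with the replicate block, in libraries 3 and 4 only, with macrophage-expressed TMM factors and with upper quartile factors. Same-numbered libraries of different groups correlated at −0.39 to 0.319 after each gene was centred within its group, with 5 of 12 over 0.1. With 4 libraries per group and no label on pairing, these values do not decide whether the replicate number pairs the samples. The block changed the call of no receptor other than Tlr1.

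With the covariate, against macrophages alone, control corpses gave Tlr13 −0.10, Tlr2 0.18, Tlr6 0.037, Cd180 −0.11, Dusp1 0.072, Ikbkg −0.12, Lbp −0.066, Nfkbiz 0.037, Tollip −0.0030 and Unc93b1 0.25, and STC1OE corpses gave Unc93b1 0.079. Between corpse groups it gave Tlr2 −0.033, Tlr4 0.045, Tlr7 0.018 and Ticam1 −0.044. Tlr9 was −0.13 and −0.51 with it and not called. In libraries 1 and 2 only, Tlr2 was 0.043 and Tlr6 0.023 with control corpses. Tlr2 with STC1OE corpses was −0.036 in libraries 3 and 4 only, −0.013 with macrophage-expressed TMM factors, −0.010 with upper quartile factors, and from −0.029 to 0.045 with 1 library left out. Tlr3 between corpse groups was −0.025 in libraries 3 and 4 only and from −0.0012 to 0.11 with 1 library left out. The cause of these shifts was not tested. Over all genes tested, 6582, 7186 and 893 calls (control and STC1OE corpses against macrophages alone, then between corpse groups) became 1687, 2119 and 4 in the test against 1.2-fold, 29, 652 and 0 with the covariate, and 4090, 4650 and 33 in libraries 1 and 2 only. Between corpse groups they were 1925 in libraries 3 and 4 only, and 561, 529, 474 and 486 without replicates 1 or 3 of control corpses or 3 or 4 of STC1OE corpses. Of 1104 counts of the pathway lists under these alternatives, 96 moved by over 1.5 times.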
